A study of Homo sapiens with 4 samples.

Results

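The circular RNAs of 3 genes that are reported as raised in pancreatic ductal adenocarcinoma were followed through 4 libraries: the circle of LDLRAD3 (hsa_circ_0006988), the circle of MBOAT2 (hsa_circ_0007334) and the circle of FOXK2 (hsa_circ_0000816). They were taken by their identifiers from a table of 80821 circRNA identifiers, of which 29586 had at least 1 count. The host gene of each was named beforehand with its identifier and was not checked against the position of the circle. All 3 were counted in every library. The cells were MiaPaCa-2 and PANC-1, established human cell lines of this cancer, each left untreated or exposed for 24 h to thymoquinone (TQ), a quinone from black seed. MiaPaCa-2 received 20 µM and PANC-1 received 10 µM, so that line and dose cannot be told apart in any comparison of the TQ responses. The study asked whether TQ lowers circRNAs linked to this cancer. There were 4 groups of 1 library each, called untreated and treated below: a library of each line without TQ and one with it, and both lines stand for this cancer only as cultured cells.

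A circular RNA forms when the spliceosome joins the end of an exon back to the start of the same or an earlier exon, so that the molecule has no free ends and resists exonucleases. It is recognised in sequencing by reads across this back-splice junction, and the count of such reads is the level used here. Because each circle has 1 junction, junction counts of different circles can be set side by side without division by length, although junctions may differ in how well reads align to them. Some circles bind microRNAs or proteins, and that is how these 3 have been described in pancreatic cancer.

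LDLRAD3 encodes a membrane protein with the ligand-binding repeats of the low-density lipoprotein receptor. Its gene lies on the plus strand at chr11:35943981-36232136. MBOAT2 encodes an acyltransferase that rebuilds membrane phospholipids, and its gene lies on the minus strand at chr2:8852690-9003813. FOXK2 encodes a forkhead transcription factor, and its gene lies on the plus strand at chr17:82519713-82644662. These are positions of the whole protein-coding genes in GENCODE release 29 on GRCh38. The exons that make up each circle were not analysed here, and neither was the linear messenger RNA of the hosts, since linear RNA was digested before sequencing.

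In published work the LDLRAD3 circle has been described as binding miR-137-3p, the MBOAT2 circle miR-433-3p and the FOXK2 circle miR-942-5p. The mature sequences are shown to identify these partners and come from RefSeq (GRCh38.p14). Capitals mark the seed, bases 2 to 8. No microRNA was measured, and no value below bears on this binding.
hsa-miR-137-3p: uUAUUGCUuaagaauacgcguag
hsa-miR-433-3p: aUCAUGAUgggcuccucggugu
hsa-miR-942-5p: uCUUCUCUguuuuggccaugug
No seed is shared among them, so the described partners form 3 seed groups.

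Libraries differed in depth. Total back-splice counts were lowest in treated MiaPaCa-2, with 15819, and highest in treated PANC-1, with 67964. Most identifiers were sparse: the median count of a detected identifier was 2 in every library. Counts were divided by a library scale from TMM (a trimmed mean of ratios between libraries) to give scaled counts. The cell type could not be checked against marker genes, since no linear RNA was counted. Intervals below cover counting error only, because PCR copies were not removed by molecular identifiers and no group had a second library.

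All 3 circles were among the more abundant identifiers of every library. The LDLRAD3 circle had 81 counts in untreated MiaPaCa-2, 26 in treated MiaPaCa-2, 28 in untreated PANC-1 and 70 in treated PANC-1. It was the most counted of the 3 in both MiaPaCa-2 libraries, the least counted in untreated PANC-1 and second in treated PANC-1. It took 0.180% of all back-splice counts of untreated MiaPaCa-2 (95% Clopper-Pearson interval 0.143 to 0.223) and 0.164% of those of treated MiaPaCa-2 (0.107 to 0.241). In PANC-1 its share was 0.0576% in control (0.0383 to 0.0832) and 0.103% in TQ (0.0803 to 0.130). The interval of untreated PANC-1 lay below those of both MiaPaCa-2 libraries and overlapped that of treated PANC-1.

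By rank, the LDLRAD3 circle was 31st of 11105 detected identifiers in untreated MiaPaCa-2, and the 95% Poisson limits of its count corresponded to ranks 23 and 42. In treated MiaPaCa-2 it ranked 43 of 5089 (22 to 98), in untreated PANC-1 172 of 12081 (93 to 331) and in treated PANC-1 69 of 14965 (44 to 98). Its rank range in untreated MiaPaCa-2 did not meet that in either PANC-1 library. Ranks of libraries of different depth show a position within each library, not a change. Identifiers with the same count all take the best rank of their tie.

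The MBOAT2 circle had 22 counts in untreated MiaPaCa-2, 11 in treated MiaPaCa-2, 43 in untreated PANC-1 and 48 in treated PANC-1. It was the least counted of the 3 in untreated MiaPaCa-2 and in treated PANC-1. Its shares were 0.0488% (0.0306 to 0.0739), 0.0695% (0.0347 to 0.124), 0.0884% (0.0640 to 0.119) and 0.0706% (0.0521 to 0.0936) in the same order of libraries. These 4 intervals overlapped one another. It ranked 242 (131 to 494), 179 (70 to 546), 81 (44 to 139) and 122 (81 to 213). The same count was held by 16 other identifiers in untreated MiaPaCa-2 and by 28 in treated MiaPaCa-2.

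The FOXK2 circle had 32 counts in untreated MiaPaCa-2, 9 in treated MiaPaCa-2, 41 in untreated PANC-1 and 89 in treated PANC-1. The 9 counts were the fewest of any of the 3 circles in any library, and the 89 counts were the most. Its shares were 0.0710% (0.0485 to 0.100), 0.0569% (0.0260 to 0.108), 0.0843% (0.0605 to 0.114) and 0.131% (0.105 to 0.161). The treated PANC-1 interval lay above that of untreated MiaPaCa-2 and overlapped the other 2. It ranked 142 (73 to 259), 248 (90 to 735), 87 (47 to 159) and 43 (25 to 68). At rank 248, in treated MiaPaCa-2, 38 other identifiers had the same count. In the least favourable case, the FOXK2 circle in treated MiaPaCa-2, 94.4% of detected identifiers still had fewer counts.

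**Figure D1:**
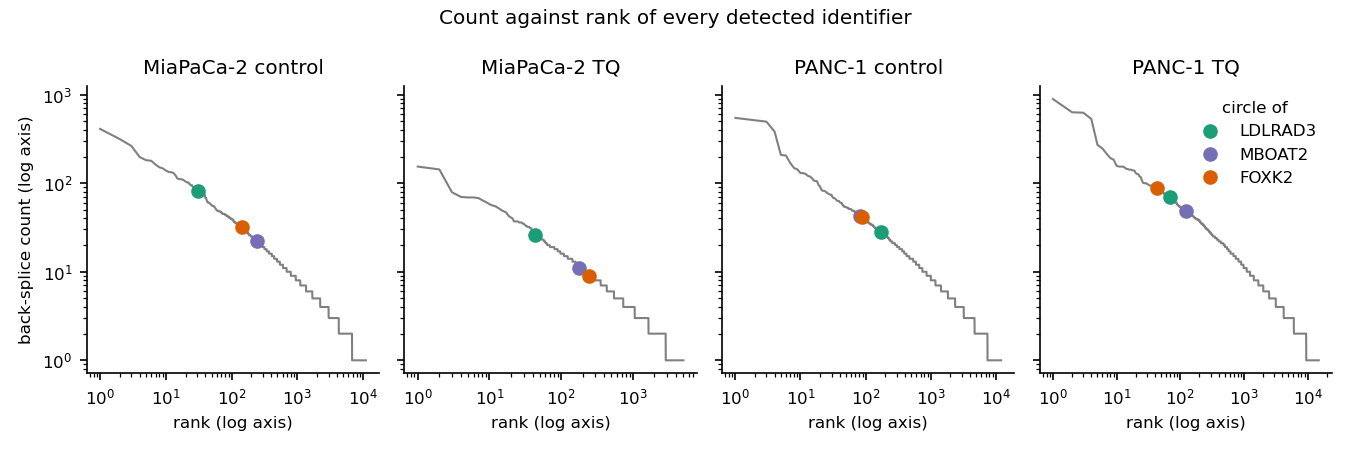
Back-splice count (log axis) against rank (log axis) for every identifier with a count, 1 panel per library; the grey line is all identifiers and the coloured points are the 3 circles. The points sit in the upper left part of each curve, between rank 31 and rank 248, and the LDLRAD3 circle moves from the front of the 3 in MiaPaCa-2 to the back in untreated PANC-1.

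Between the untreated lines, the LDLRAD3 circle was lower in PANC-1. Its scaled count was 70.6 in untreated MiaPaCa-2 and 24.4 in untreated PANC-1, which is 2.90-fold lower in PANC-1 (ratio 0.345, 99% interval 0.186 to 0.608). A difference was called where the 2 libraries held at least 10 counts, the ratio was at least 2 or at most 0.5 and the exact 99% interval excluded 1. The LDLRAD3 circle met this rule, and the other circles did not. Of 1811 identifiers with at least 10 counts in the 2 control libraries, 28.7% met it in either direction and 13.2% were lower in PANC-1, so that a difference of this kind between the lines was common. Of these identifiers, 16.6% had a lower ratio than the LDLRAD3 circle (ratios with 0.5 added to each count).

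The values of the MBOAT2 circle lay the other way around in the control libraries, with a scaled count of 19.2 for MiaPaCa-2 and 37.4 for PANC-1. The ratio was 1.95 (99% interval 0.978 to 4.08), just short of the 2-fold minimum, and its interval included 1. With 65 counts over both libraries, the smallest higher ratio that could have been called was 2.09. The FOXK2 circle had scaled counts of 27.9 and 35.7, a ratio of 1.28 (0.680 to 2.44). The median ratio of all 1811 identifiers was 0.998, with the middle 50% between 0.516 and 2.20, and the ratios of the MBOAT2 and FOXK2 circles lay inside that range.

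**Figure D2:**
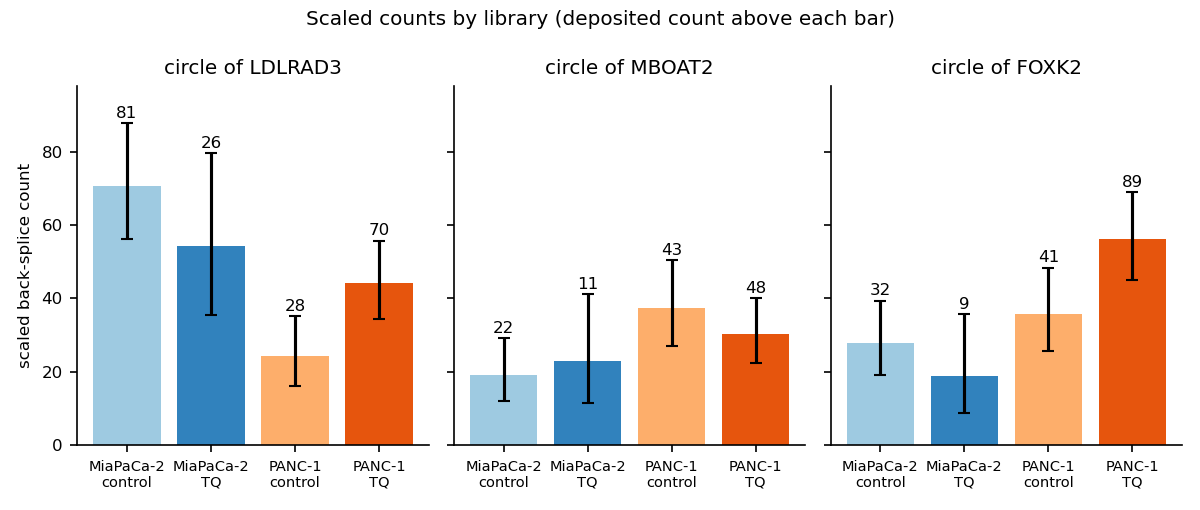
Scaled back-splice counts (linear axis) of the 3 circles in the 4 libraries; bars are single libraries, error bars are exact 95% Poisson limits of the count, and the number above each bar is the deposited count. The LDLRAD3 bars are tallest in MiaPaCa-2, and the FOXK2 bar is tallest in treated PANC-1, at 56.1.

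With the TQ libraries included, the lines separated for each of the 3 circles. Scaled counts of the LDLRAD3 circle were 70.6 and 54.4 in untreated and treated MiaPaCa-2 against 24.4 and 44.1 in untreated and treated PANC-1. Those of the MBOAT2 circle were 19.2 and 23.0 in MiaPaCa-2 against 37.4 and 30.2 in PANC-1. Those of the FOXK2 circle were 27.9 and 18.8 in MiaPaCa-2 against 35.7 and 56.1 in PANC-1. Thus both PANC-1 libraries were below both MiaPaCa-2 libraries for the LDLRAD3 circle and above them for the others. Of 827 identifiers that passed edgeR's filter on low counts, 67.0% had lines that did not overlap, so a separation of this kind was common and says little about the 3 circles. The LDLRAD3 values of the lines overlapped under TMM over every identifier and under DESeq2 size factors over every identifier.

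In edgeR's quasi-likelihood test with terms for line and treatment, none of the 3 circles passed a false discovery rate of 0.05 between the lines. The log2 difference of PANC-1 over MiaPaCa-2 was -0.92 (SE 0.46) for the LDLRAD3 circle, with an adjusted p of 0.341 by edgeR. It was 0.69 (SE 0.47) for the MBOAT2 circle, with an adjusted p of 0.428 by edgeR. It was 0.92 (SE 0.51) for the FOXK2 circle, with an adjusted p of 0.368 by edgeR. The test called 1 of 827 identifiers, or 0.121%, had 1 residual degree of freedom, and gave 146 at an unadjusted p under 0.05. Without the MiaPaCa-2 control library and without the treatment term, the FOXK2 circle had a log2 difference of 1.46 and an adjusted p of 0.0357 by edgeR. In that fit MiaPaCa-2 is the treated library alone, the spread comes from the PANC-1 libraries and is assumed to hold for MiaPaCa-2, and 34.3% of 1260 identifiers passed, 27.0% as higher in PANC-1. A pass there was common and says little about the FOXK2 circle. The adjusted p of the FOXK2 circle ran from 0.0357 to 0.864 over all the alternatives.

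The TQ libraries of the lines, which also differ in dose, gave other ratios. The scaled count of treated PANC-1 over that of treated MiaPaCa-2 was 0.811 (99% interval 0.447 to 1.55) for the LDLRAD3 circle, 1.31 (0.563 to 3.6) for the MBOAT2 circle and 2.98 (1.26 to 8.88) for the FOXK2 circle. The FOXK2 circle met the rule of size here and the LDLRAD3 circle did not, the reverse of the control libraries. With total counts as the scale the FOXK2 ratio was 2.30 (0.975 to 6.87), which did not meet the rule, and with TMM over every identifier the LDLRAD3 ratio lay above 1, at 1.30. Among the 1598 identifiers that reached 10 counts over these 2 libraries the median ratio was 1.75, and 21.4% met the rule, 12.4% as higher and 9.01% as lower in PANC-1. The FOXK2 ratio lay near the middle of these identifiers, 59.3% of which had a lower ratio.

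Counts of circles from 1 library can be compared with no library scale, and the balance of the 3 circles differed between the lines. The balance and the ratios between circles below use the same counts as the comparisons above, so they are not separate evidence. How often other sets of circles shift in this way was not computed. Of 1811 identifiers, 28.7% met the rule between the control libraries, so the shift is not shown to be particular to the 3 circles. Of the 135 counts of the 3 circles in untreated MiaPaCa-2, the LDLRAD3 circle made up 60.0% (95% Clopper-Pearson interval 51.2 to 68.3), and of the 46 in treated MiaPaCa-2 56.5% (41.1 to 71.1). Of the 112 in untreated PANC-1 it made up 25% (17.3 to 34.1), and of the 207 in treated PANC-1 33.8% (27.4 to 40.7). The intervals of the MiaPaCa-2 libraries lay above those of the PANC-1 libraries. The order of the 3 was LDLRAD3, FOXK2, MBOAT2 in untreated MiaPaCa-2 and FOXK2, LDLRAD3, MBOAT2 in treated PANC-1.

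The ratio of the LDLRAD3 circle to the FOXK2 circle was 2.53 in untreated MiaPaCa-2 (95% interval 1.66 to 3.94) and 2.89 in treated MiaPaCa-2 (1.31 to 7.01). It was 0.683 in untreated PANC-1 (0.407 to 1.13) and 0.787 in treated PANC-1 (0.567 to 1.09). The LDLRAD3 circle thus exceeded the FOXK2 circle in MiaPaCa-2, with and without TQ, while in PANC-1 its point value was under that of the FOXK2 circle with intervals that reached 1. From MiaPaCa-2 to PANC-1 this ratio was 3.71-fold lower in the control libraries (odds ratio 0.270, exact 99% interval 0.111 to 0.644) and 3.67-fold lower in the TQ libraries (0.272, 0.0783 to 0.822). From control to TQ it had an odds ratio of 1.14 (0.354 to 4.19) for MiaPaCa-2 and of 1.15 (0.524 to 2.57) for PANC-1. Both treatment intervals include 1, and they also include a ratio of 2, so that a constant ratio under TQ is not shown.

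The ratio of the LDLRAD3 circle to the MBOAT2 circle was 3.68 in untreated MiaPaCa-2 (95% interval 2.28 to 6.20), 2.36 in treated MiaPaCa-2 (1.13 to 5.30), 0.651 in untreated PANC-1 (0.390 to 1.07) and 1.46 in treated PANC-1 (0.996 to 2.15). Between the control libraries it was 5.65-fold lower in PANC-1 (odds ratio 0.177, 99% interval 0.0685 to 0.444). Between the TQ libraries the odds ratio was 0.617 (0.190 to 1.83). The line difference in this ratio thus passed its interval in the untreated cells and was not detectable at this depth in the treated ones, and whether the untreated and treated differences differ was not tested. Within PANC-1 the odds ratio of TQ over control was 2.24 (0.979 to 5.20).

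The ratio of the FOXK2 circle to the MBOAT2 circle was 1.45 (95% interval 0.819 to 2.63) in untreated MiaPaCa-2, 0.818 (0.300 to 2.17) in treated MiaPaCa-2, 0.953 (0.606 to 1.5) in untreated PANC-1 and 1.85 (1.29 to 2.69) in treated PANC-1. Treated PANC-1 was the one library whose interval excluded 1. No 99% interval of a difference between libraries in this ratio excluded 1. The nearest was TQ over control in PANC-1, with an odds ratio of 1.94 (0.906 to 4.19).

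**Figure D3:**
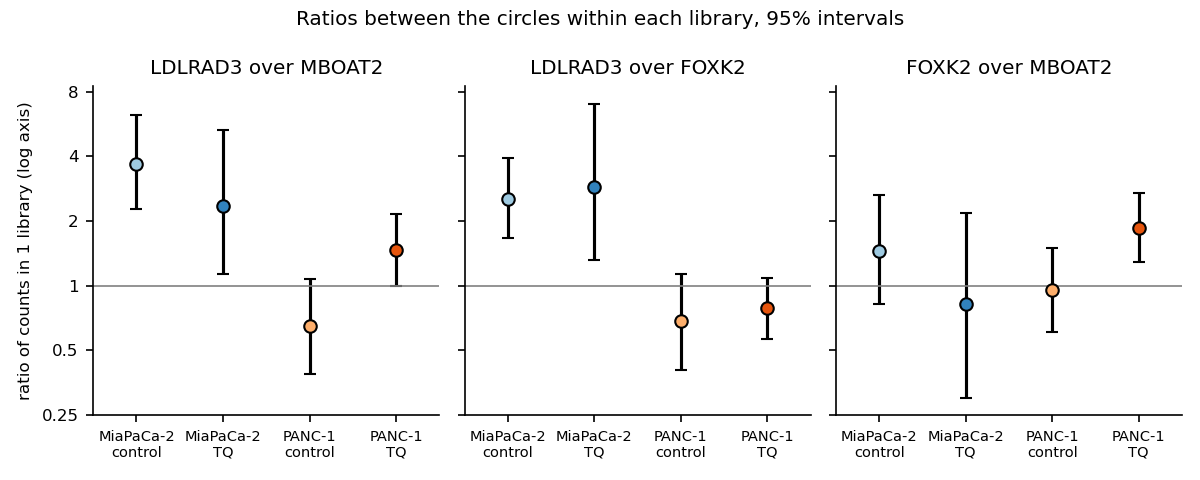
Ratio of the counts of 2 circles within 1 library (log axis), 1 panel per pair and 1 point per library, with exact 95% intervals; the grey line marks a ratio of 1. In the panel of LDLRAD3 over FOXK2 the MiaPaCa-2 points, at 2.53 and 2.89, lie above 1 and the PANC-1 points, at 0.683 and 0.787, lie below it.

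With TQ, none of the 3 circles met the rule of size in either line in the scale used here. In MiaPaCa-2 the rule called 10.6% of 1130 identifiers with at least 10 counts (4.07% higher and 6.55% lower in TQ), and in PANC-1 8.87% of 2289 (5.68% and 3.19%). With 3 circles, 0 called is close to what those shares give.

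The LDLRAD3 circle had 26 counts in treated MiaPaCa-2, where 33.8 would give a ratio of 1 to its control. In treated PANC-1 it had 70, where 38.7 would. TQ over control was 0.770 for MiaPaCa-2, with a 99% interval of 0.407 to 1.38, and 1.81 for PANC-1, with an interval of 1.01 to 3.39. The PANC-1 ratio stayed under the 2-fold minimum, and whether its interval excluded 1 depended on the scale. The interval included 1 with DESeq2 size factors (0.976 to 3.27) and with TMMwsp, a form of TMM for sparse counts (0.997 to 3.34). TMM over every identifier gave 2.08 in PANC-1 (1.16 to 3.89), which met the rule. Of the 2289 PANC-1 identifiers, 83.3% had a lower ratio than the LDLRAD3 circle.

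The FOXK2 circle had 9 counts in treated MiaPaCa-2, where 13.3 would give a ratio of 1, and 89 in treated PANC-1, where 56.7 would. For MiaPaCa-2 its ratio was 0.675 (99% interval 0.213 to 1.77), and for PANC-1 it was 1.57 (0.961 to 2.64). Both intervals included 1, and with TMM over every identifier the PANC-1 interval did not (1.10 to 3.04). In MiaPaCa-2 its 41 counts allowed a call only at a ratio of 0.259 or less, or 2.52 or more.

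The MBOAT2 circle had 11 counts in treated MiaPaCa-2, where 9.17 would give a ratio of 1, and 48 in treated PANC-1, where 59.4 would. Its ratios were 1.20 (99% interval 0.404 to 3.2) and 0.808 (0.460 to 1.43). In MiaPaCa-2 its 33 counts allowed a call only at a ratio of 0.155 or less, or 2.88 or more, so that a smaller difference was not detectable there. In PANC-1, by counting error alone, the interval excludes ratios under 0.460 and over 1.43.

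**Figure D4:**
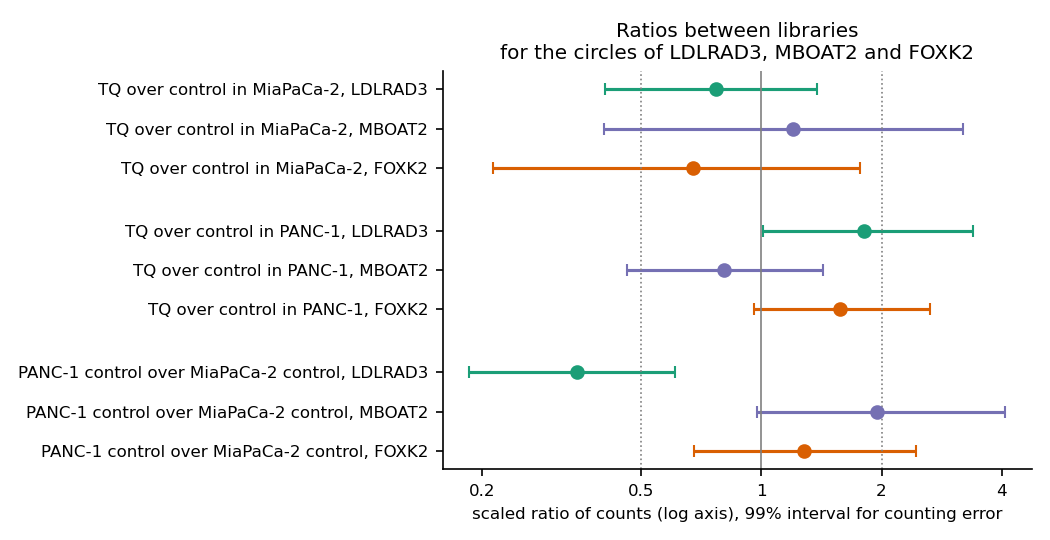
Scaled ratios of counts (log axis) for TQ over control in each line and for untreated PANC-1 over untreated MiaPaCa-2, with exact 99% intervals for counting error; the solid line marks 1 and the dotted lines 0.5 and 2. The LDLRAD3 ratio between the control libraries, 0.345, is the one point past a dotted line with an interval that excludes 1.

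The MiaPaCa-2 ratios depended on the library scale. The ranges here leave out DESeq2 size factors over every identifier, which are given apart. Over TMM as used here and the other scales, the LDLRAD3 ratio ran from 0.547 (TMM over every identifier) to 0.915 (total counts). At 0.547 its 99% interval excluded 1 (0.289 to 0.977), but the ratio did not reach the 0.5 limit of the rule. The FOXK2 ratio ran from 0.479 to 0.802 under the same pair of scales. The MBOAT2 ratio ran from 0.851 to 1.42, and its direction turned under TMM over every identifier and under DESeq2 size factors over every identifier (0.620). The latter scale gave 0.398 for the LDLRAD3 circle and 0.349 for the FOXK2 circle, both of which met the rule as lower. The median log2 ratio of the 1130 identifiers moved too, from -0.20 in the scale used here to -0.70 with TMM over every identifier and 0.05 with total counts. In PANC-1 the ratios ran from 1.74 to 2.08 for the LDLRAD3 circle, from 1.51 to 1.80 for the FOXK2 circle and from 0.779 to 0.928 for the MBOAT2 circle. Between the control libraries the LDLRAD3 ratio ran from 0.320 to 0.345 and met the rule under each of these scales.

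**Figure D5:**
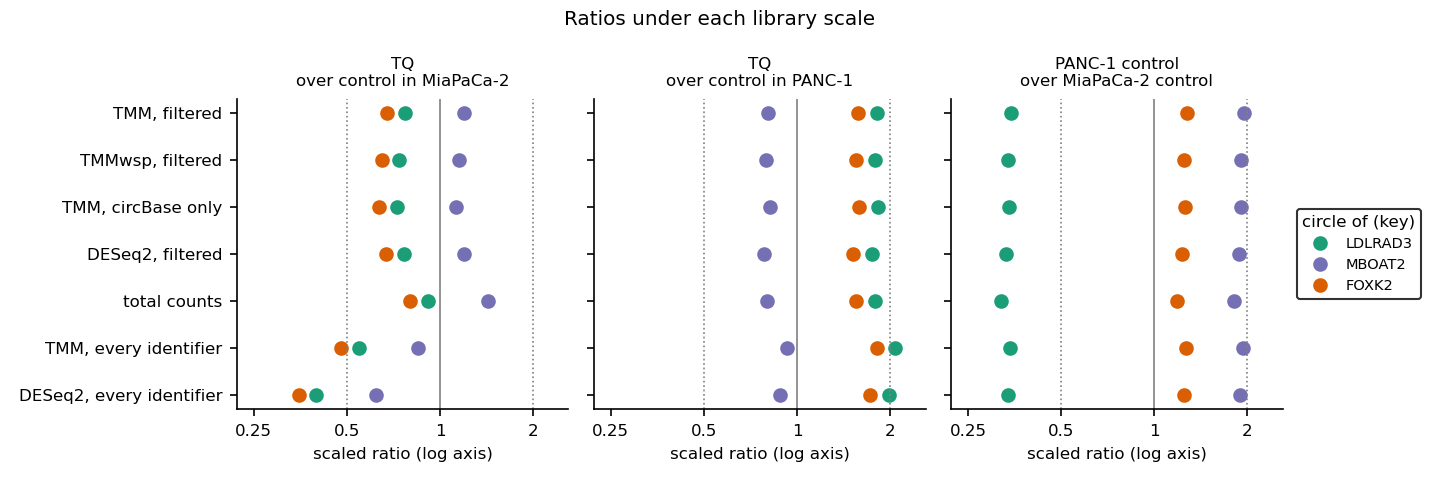
Scaled ratios (log axis) of the 3 circles under each of 7 library scales, 1 panel per comparison; the solid line marks 1 and the dotted lines 0.5 and 2. The points of TQ over control in MiaPaCa-2 shift left in the last pair of scales, which use every identifier, and those of the control libraries hardly move.

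Over both lines together, edgeR's quasi-likelihood test found no treatment effect past a false discovery rate of 0.05. It called 0 of 827 identifiers (0%), with 5 at an unadjusted p under 0.05, and DESeq2 called 0 with 8 unadjusted. The log2 difference of TQ over control was 0.24 (SE 0.46) for the LDLRAD3 circle, -0.05 (SE 0.47) for the MBOAT2 circle and 0.11 (SE 0.51) for the FOXK2 circle, each with an adjusted p of 0.998 by edgeR. The lines are the only replication in this fit, and the ratios of the lines lay on opposite sides of 1 for each circle, except for the MBOAT2 circle under both scales that use every identifier. How common such opposite ratios are among all identifiers was not computed.

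Set against other circles that have been described in pancreatic cancer, the 3 were well represented. Of 10 such circles fixed by circBase identifier, 7 were in the table, and 2 of these had at least 10 counts in a line. The circle of HIPK3, a kinase gene, had 314 and 37 counts in MiaPaCa-2 without and with TQ and 383 and 531 in PANC-1, more than any of the 3 circles in every library. TQ over control for the HIPK3 circle was 0.283 (99% interval 0.173 to 0.438) with MiaPaCa-2 cells, which met the rule of size as lower, and 1 (0.843 to 1.20) with PANC-1 cells. Its ratio of untreated PANC-1 over untreated MiaPaCa-2 was 1.22 (0.998 to 1.49). The circle of BFAR, a gene for a regulator of cell death (hsa_circ_0009065), had 7, 5, 17 and 17 counts in the same libraries, fewer than the 3 circles in every library. TQ over control for the BFAR circle was 1.71 (99% interval 0.277 to 9.10) with MiaPaCa-2 cells and 0.724 (0.279 to 1.88) with PANC-1 cells, and the ratio of untreated PANC-1 over untreated MiaPaCa-2 was 2.42 (0.743 to 9.73). In no library did the circles of RHOT1, STIL, PDE8A, SHPRH or NFIB reach more than 4 counts. The 3 circles and these 10 were chosen with earlier results of these data known. Their standing among one another is therefore a description and not a test.

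The identifiers most like each circle in pattern were found among the 174 with at least 100 counts over the 4 libraries, by the distance between log2 scaled counts (1 added) centred on their mean over the 4 libraries. Nearest to the LDLRAD3 circle was hsa_circ_0006956, with 61, 22, 28 and 66 counts and a distance of 0.307, followed by hsa_circ_0001865, with 55, 15, 22 and 42 and a distance of 0.343. Nearest to the MBOAT2 circle were hsa_circ_0071653, with 80, 37, 121 and 142 counts and a distance of 0.271, and hsa_circ_0001821, with 151, 68, 209 and 271 and a distance of 0.341. Nearest to the FOXK2 circle were hsa_circ_0001661, with 21, 8, 36 and 73 counts and a distance of 0.336, and hsa_circ_0004979, with 33, 11, 52 and 83 and a distance of 0.351. The median distance of an identifier was 1.84 to the LDLRAD3 circle, 1.48 to the MBOAT2 circle and 1.53 to the FOXK2 circle. Likeness over 4 libraries is a description, and the nearest of 173 will be close by selection.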

How the data were processed

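Total RNA was depleted of ribosomal RNA, treated with ribonuclease R to digest linear RNA and sequenced as strand-specific paired reads of 150 bases, per the labels' protocols. The deposited values are whole-number read counts across the back-splice junction of each circRNA, 1 column per library, not normalised. According to the submitters' processing notes, the tools included TopHat, TopHat2, Bowtie2, cutadapt, FastQC and edgeR, and the build was GRCh38.p13. Neither the circRNA caller nor the number of separate cultures is given in the sources used here.

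Scales came from TMM on the 827 identifiers that pass edgeR's filterByExpr. Ratios have exact conditional binomial intervals, and with 1 library per group no p was computed for them. The edgeR fit over all 4 libraries had terms for line and treatment, with Benjamini-Hochberg adjustment. Odds ratios are conditional and exact. The procedures were tested on simulated data, with outcomes not given here. For the ratios these were Poisson counts, which the intervals themselves assume. That test therefore could not check the intervals against spread between replicates or PCR copies. Named circRNAs were the 3 circles, 10 others reported in pancreatic cancer, and the 2 identifiers most like each circle. Members, lists and tests were chosen with earlier results of these data known. Alternatives were other scales, intervals, folds, minimums and denominators, DESeq2, no filter, fewer terms and leaving out libraries. Python 3.11.15 and scipy 1.17.1 were used for intervals, and edgeR 4.0.16 and DESeq2 1.42.0 in R 4.3.3 for scales and fits.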

Additional observations from a re-analysis of the deposited data

Results flagged for a closer look

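In the scale used here, the TQ ratio of each of the 3 circles lay on opposite sides of 1 in MiaPaCa-2 and PANC-1. Of these TQ ratios, only the LDLRAD3 ratio in PANC-1 had a 99% interval that excluded 1 (1.01 to 3.39). The PANC-1 ratio divided by the MiaPaCa-2 ratio was 2.35 for the LDLRAD3 circle (exact 99% interval 1.005 to 5.661), 2.33 for the FOXK2 circle (0.7645 to 8.135) and 0.674 for the MBOAT2 circle (0.2133 to 2.289). The intervals hold counting error alone, each line had 1 library per treatment and the dose was 20 µM in MiaPaCa-2 and 10 µM in PANC-1, so the difference was not tested against a spread between replicates. How common opposite ratios or quotients of this size are among all identifiers was not computed. The median ratio of PANC-1 over MiaPaCa-2 was 0.998 for the control libraries (1811 identifiers) and 1.75 for the TQ libraries (1598 identifiers). The quotients are therefore not shown to be particular to the 3 circles. They also depended on the library scale. For the LDLRAD3 circle the interval included 1 with total counts (1.95, 0.8359 to 4.71) and with DESeq2 size factors (2.28, 0.9737 to 5.486), and the quotient rose to 3.80 (1.627 to 9.165) with TMM over every identifier. For the FOXK2 circle that last scale gave 3.77 (1.238 to 13.17), an interval that excluded 1, and total counts gave 1.94. For the MBOAT2 circle the quotient ran from 0.560 with total counts to 1.09 with TMM over every identifier, and each interval included 1. Under TMM over every identifier the MBOAT2 ratios lay on the same side of 1, at 0.851 and 0.928, and under DESeq2 size factors over every identifier at 0.620 and 0.881.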

How the results depend on the processing

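The LDLRAD3 ratio between the untreated lines met its rule under every scale, interval and fold tried. The FOXK2 ratio between the treated lines, the other ratio that met it, lost the call with total counts (2.30). Calls gained were the LDLRAD3 ratio of TQ over control in PANC-1, at 2.08 with TMM over every identifier and at 1.81 with a minimum of 1.5-fold. DESeq2 size factors were first computed over every identifier and later recomputed on the 827 identifiers that pass edgeR's filter. This change was made after the data had been seen. The recomputed version is the one called DESeq2 size factors here, and the first version was kept beside it. DESeq2 size factors over every identifier called the MiaPaCa-2 TQ ratios of the LDLRAD3 circle (0.398) and the FOXK2 circle (0.349) lower. That scale called the MBOAT2 ratio between the treated lines (2.70) higher, and it moved the LDLRAD3 ratio there to 1.66. In MiaPaCa-2 it called 348 identifiers lower and 15 higher in TQ, against 74 and 46 in the scale used here. TMM over every identifier called 169 and 24, and total counts 49 and 82. For the TQ response in PANC-1 divided by that in MiaPaCa-2, the LDLRAD3 interval came to include 1 with DESeq2 size factors (2.28) and total counts (1.95), and the FOXK2 interval came to exclude 1 with TMM over every identifier (3.77). DESeq2 size factors over every identifier gave 4.96 (LDLRAD3) and 4.91 (FOXK2), both with intervals that excluded 1.

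The edgeR treatment effects changed sign but none passed. That scale of DESeq2 gave log2 differences of -0.17 (LDLRAD3) and -0.30 (FOXK2), and no filter gave -0.046 (FOXK2). With each library left out in turn and only the tested term, effects ran from -0.50 to 0.95 (LDLRAD3), -0.52 to 0.53 (MBOAT2) and -0.89 to 0.83 (FOXK2). Signs turned without treated MiaPaCa-2 (LDLRAD3 -0.12, MBOAT2 0.12), untreated PANC-1 (-0.50, 0.53) and treated PANC-1 (FOXK2 -0.89). Line effects ran from -1.22 to -0.30, from 0.71 to 0.98 and from 0.67 to 1.46, the last without untreated MiaPaCa-2. Each of these fits leaves an arm of 1 library, assumed to vary like the other arm. With only the tested term, the arms differ in both line and treatment, so these effects and sign turns mix line with treatment. Between lines edgeR called 1 identifier higher and 0 lower, DESeq2 36 and 38, edgeR with DESeq2 size factors 9 and 11 (29 and 9 with those over every identifier), edgeR with no filter 10 and 5, and edgeR with only the line term 92 and 66. With that term alone it called 340 and 92 without untreated MiaPaCa-2, 139 and 73 without treated MiaPaCa-2, 1 and 0 without untreated PANC-1 and 47 and 31 without treated PANC-1. For treatment it called 1 higher and 0 lower without treated PANC-1 and 0 in each of the other fits. The cause of these shifts was not tested.

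With circBase identifiers as denominator, LDLRAD3 shares were 0.256%, 0.241%, 0.0835% and 0.147% in the order of the report, MBOAT2 shares 0.128% and 0.101% in PANC-1, and FOXK2 shares 0.101% in untreated MiaPaCa-2 and 0.122% and 0.187% in PANC-1. This denominator is smaller by construction. The treated MiaPaCa-2 library, the shallowest, limits every comparison that uses it. The edgeR fit with terms for line and treatment sets each treated library against the untreated library of its line. The labels number no replicates, so there was no further pairing to fit.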
